A study of Homo sapiens with 34 samples.

Results

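The genes described here are the mitochondrially encoded genes, taken as every row of the RNA-seq table whose symbol starts with MT-. The rule gave 37 of 28071 genes, made up of 13 mRNAs, 2 rRNAs and 22 tRNAs. The same gene identifiers were looked up in the table of RNA immunoprecipitation (RIP), which held 35 of them among its 25035 genes: the 13 mRNAs, the 2 rRNAs and 20 tRNAs, with no row for MT-TI and MT-TG. The cells were LNCaP, a human cell line established from a prostate cancer metastasis, which responds to androgen. RNA-seq covered 6 groups of 2 libraries each. These were androgen-independent cells (AI) with siRNA against EZH2 (siEZH2), with a mock siRNA (mock) and untreated, and androgen-dependent cells (AD) with siEZH2, with mock siRNA and untreated. AI cells were kept in RPMI1640 with serum stripped by charcoal, which removes steroid hormones, and AD cells in RPMI1640. Transfected cells were collected after 24 h. The labels' protocol names LNCaP/abl as the transfected line, but some siRNA libraries have AD in their titles, and groups follow the titles. RIP covered 4 groups of 2 libraries each, with an antibody to EZH2 in AI cells, IgG in AI cells, EZH2 in AD cells and IgG in AD cells, after crosslinking with ultraviolet light at 400 mJ/cm2. EZH2 methylates histone H3 as the catalytic subunit of a Polycomb complex. The labels do not say whether AI is a single clone, or whether replicates came from separate cultures, so the spread behind every p-value is that between libraries and may be technical.

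Mitochondrial DNA is a small circular genome that each cell holds in many copies inside its mitochondria. Both strands are transcribed by the polymerase POLRMT, with TFAM and TFB2M, into long precursors, and the tRNAs that lie between the other genes are cut out to free mRNAs and rRNAs. The mRNAs encode core subunits of the respiratory chain (complexes I, III and IV) and of ATP synthase (complex V), and the rRNAs form the mitochondrial ribosome. After cutting, stability is set for most mRNAs by the LRPPRC-SLIRP complex and by poly(A) tails, which MT-ND6 is known to lack. Normal prostate epithelium is known for secreting citrate rather than oxidizing it, and prostate cancer cells for a greater use of citrate in respiration.

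By the usual naming of the strands, 9 of the 37 genes are light-strand genes: MT-ND6 and 8 tRNAs. Positions are those of RefSeq's annotation of GRCh38.p14, the build family named for the deposited files. The 12S rRNA gene MT-RNR1 lies at 648 to 1601 of the mitochondrial chromosome and the 16S rRNA gene MT-RNR2 at 1671 to 3229. MT-ND3, of complex I, lies at 10059 to 10404, and MT-ND4L (10470 to 10766) and MT-ND4 (10760 to 12137) overlap by 7 bases. MT-ND6 (14149 to 14673) lies next to MT-CYB (14747 to 15887), the cytochrome b of complex III on the other strand, with only the tRNA gene MT-TE between them. MT-ATP8 (8366 to 8572) shares 46 bases with MT-ATP6 (8527 to 9207), so reads there can belong to either. Mitochondrial mRNAs hold no introns, and each gene is its own exon. Whether reads were counted by strand is not given in the sources used here, so reads from the opposite strand over MT-ND6 cannot be told apart from MT-ND6 itself.

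Values are RPKM (reads scaled to gene length and to the mapped reads of the library), which is a level per length, and where 2 values are given for a group they are replicates 1 and 2. Depth, recovered from the size of 1 read in the tRNA values, was about 7.55 to 12.8 M reads (M, mega) in the 8 transfected RNA-seq libraries and 17.4 to 58.3 M in the 4 untreated ones. EZH2 RIP libraries had 4.605 to 8.15 M reads and IgG libraries 0.0814 to 1.85 M. EZH2 itself was at 3.60 and 4.33 RPKM in AI siEZH2 cells, against 7.07 and 5.44 in AI mock cells (log2 change -0.59, adjusted p = 0.126). In AD siEZH2 cells it was at 11.5 and 10.7 RPKM, against 10.95 and 12.5 in AD mock cells (-0.07, adjusted p = 1). A knockdown was thus called in neither line, though in AI cells both siEZH2 libraries lay below both mock libraries. All 11 markers of luminal prostate cells were at 0.5 RPKM or more in each of the 12 RNA-seq libraries, with sums of 7021 and 5199.8 RPKM in AD untreated cells and 2713 to 3798 in the other 10 libraries. Of 17 markers of blood, vessel, stroma, basal and neuroendocrine cells, 6 to 11 were at 0 per library, and CD3E, KRT5 and TP63 never passed 0.05 RPKM. Others were detected. KRT14 was at 3.73 and 4.56 RPKM and VWF at 3.53 and 3.28 in AD untreated cells. ITGB4 was at 3.58 to 4.58 RPKM in transfected AD libraries, and COL1A1 at 0.86 to 2.81 over all libraries. The sums over the 17 markers were 3.85 to 4.53 RPKM in AI and 9.68 to 13.2 in AD libraries, and their part in the results was not tested. The table also lists 87 nuclear copies of mitochondrial genes, led by MTCO1P40, MTRNR2L1, MTND6P21 and MTRNR2L5, whose summed level was 1.96 to 12.8 RPKM per library, so the mitochondrial rows carried nearly all reads assigned to these sequences.

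Mitochondrially encoded RNA took a far smaller share of the transfected libraries than of the untreated ones. It made up 3.85 and 3.81% of all RPKM in AI siEZH2 cells and 3.94 and 4.07% in AI mock cells, against 19.6 and 33.4% in AI untreated cells. In AD cells the share was 2.12 and 2.10% with siEZH2 and 2.37 and 2.45% with mock siRNA, against 18.4 and 32.6% in untreated cells. As group means this was 4.00 ± 0.098% in AI mock cells against 26.5 ± 9.79% in AI untreated cells, and 2.41 ± 0.0528% in AD mock cells against 25.5 ± 10.0% in AD untreated cells (SD, n = 2). The untreated replicates of a line differed from each other by more percentage points than the 8 transfected libraries did among themselves. In bulk RNA, fewer cells of a kind and less RNA per cell cannot be told apart, and neither can fewer mitochondrial genomes per cell.

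**Figure D1:**
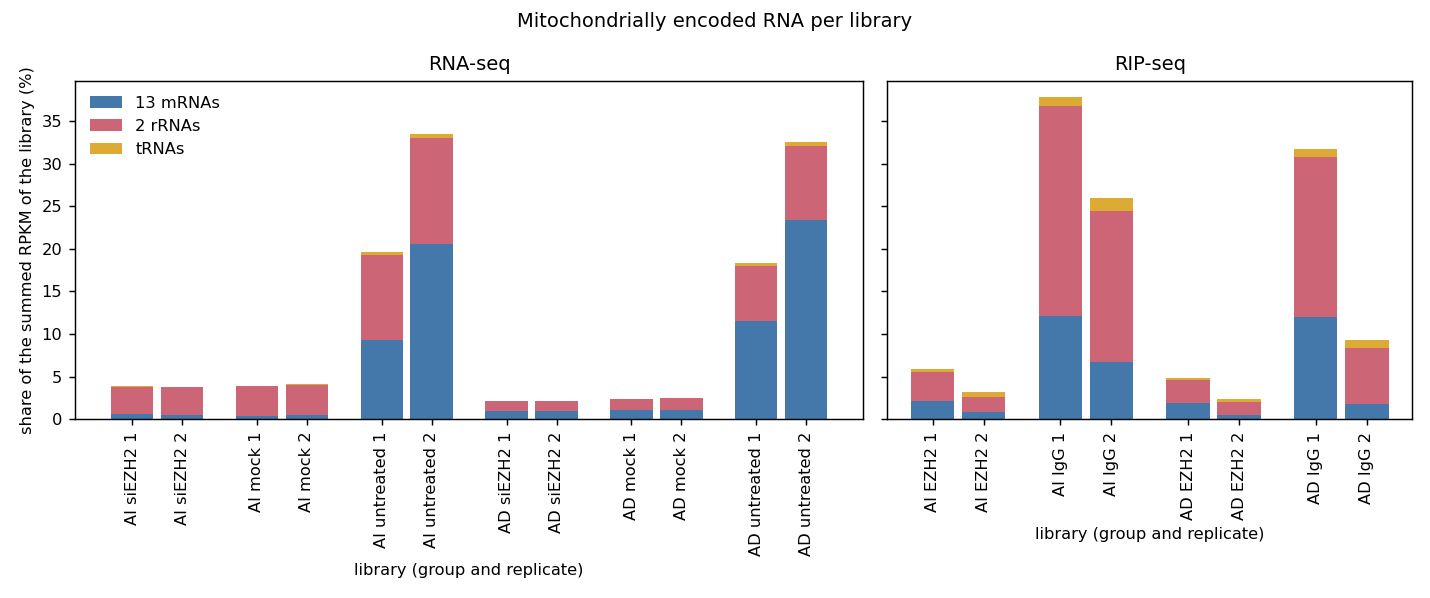
Stacked bars give the share of each library's summed RPKM (%, vertical axis) held by the 13 mRNAs (blue), the 2 rRNAs (red) and the tRNAs (yellow), for the 12 RNA-seq libraries on the left and the 8 RIP libraries on the right. Transfected libraries lie between 2.10 and 4.07%, untreated ones between 18.4 and 33.4%; in RIP the EZH2 libraries lie between 2.40 and 5.85% and the IgG libraries between 9.26 and 37.8%.

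The first comparison asks how mock-transfected cells differed from untreated cells of the same line. All 13 mRNAs fell in both lines by the limma test at an adjusted p under 0.05, and both libraries of each mock group lay below both untreated ones for every mRNA, as for 46.8% of all tested genes in AI and 15.7% in AD cells. Among all 14227 tested genes, 57.1% were called in AI cells (21.5% higher and 35.5% lower) and 45.4% in AD cells (37.6% higher and 7.73% lower). As counts these were 3064 higher and 5057 lower in AI cells, which became 3935 and 4146 under median-ratio scaling, and 5355 and 1100 in AD cells, which became 2658 and 2347. The median log2 change over the mRNAs was -5.13 in AI cells, against -0.20 over all genes, and -4.42 in AD cells, against 0.35 over all genes. Adjusted p-values ran from 4.04e-08 to 0.000167 in AI and from 7.72e-07 to 0.00206 in AD cells, and all 13 stayed called under every alternative scaling, filter, pseudocount and left-out library. Mock and untreated libraries also differed in depth, and the labels do not say that they were grown or sequenced together, so transfection and a difference between experiments cannot be told apart.

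The complex I mRNAs, which encode the membrane subunits of NADH dehydrogenase, covered a wide range of falls. MT-ND2 had 7.18 and 8.79 RPKM in AI mock cells, against 1275 and 2339 in AI untreated cells, and 28.0 and 29.2 in AD mock cells, against 1708 and 2537 in AD untreated cells. MT-ND1 had 175 and 184 RPKM in AI mock cells, against 3965 and 12763 in AI untreated cells, and 338 and 334 in AD mock cells, against 5366 and 17293 in AD untreated cells. MT-ND2 was thus 226-fold lower in AI mock cells (log2 change -7.68) and 74.2-fold lower in AD mock cells (-6.16), while MT-ND1 was 46.6-fold and 33.7-fold lower. MT-ND3 had 219 and 256 RPKM in AI mock cells, against 3523 and 9205 in AI untreated cells, and 989 and 1015 in AD mock cells, against 4168 and 10298 in AD untreated cells. MT-ND4L had 350.0 and 373 RPKM in AI mock cells, against 3276 and 7432 in AI untreated cells, and 400.3 and 344 in AD mock cells, against 3601 and 6786 in AD untreated cells. Here the fall was smaller, with MT-ND3 26.8-fold lower in AI and 7.22-fold lower in AD mock cells and MT-ND4L 14.8-fold and 13.95-fold lower. MT-ND4 had 333 and 356 RPKM in AI mock cells, against 3327 and 9106 in AI untreated cells, and 265 and 269.5 in AD mock cells, against 4225 and 10384 in AD untreated cells. MT-ND5 had 105 and 115 RPKM in AI mock cells, against 1415 and 2921.5 in AI untreated cells, and 138 and 137 in AD mock cells, against 1889 and 3570.1 in AD untreated cells. For both genes the mock libraries of the lines lay close together. MT-ND6, the light-strand mRNA, had 45.1 and 35.0 RPKM in AI mock cells, against 2559.95 and 5214 in AI untreated cells, and 384 and 321 in AD mock cells, against 4982 and 11327 in AD untreated cells. It was 97.0-fold lower in AI mock cells and 23.1-fold lower in AD mock cells.

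MT-CYB, the only complex III subunit made from mitochondrial DNA, had 70.2 and 74.9 RPKM in AI mock cells, against 3786 and 5532 in AI untreated cells, and 564 and 490.2 in AD mock cells, against 4995 and 7211 in AD untreated cells. It was 64.2-fold lower in AI and 11.6-fold lower in AD mock cells. The mRNAs of the catalytic core of complex IV, cytochrome c oxidase, fell less evenly. MT-CO1 had 72.5 and 77.7 RPKM in AI mock cells, against 2093 and 3329 in AI untreated cells, and 78.3 and 92.4 in AD mock cells, against 1993 and 3390.2 in AD untreated cells. MT-CO2 had 82.4 and 109 RPKM in AI mock cells, against 1522 and 6419 in AI untreated cells, and 244 and 333 in AD mock cells, against 1793 and 6857 in AD untreated cells. MT-CO3 had 117 and 132 RPKM in AI mock cells, against 2219 and 2301 in AI untreated cells, and 211 and 217 in AD mock cells, against 1605 and 2072 in AD untreated cells. The untreated replicates were close for MT-CO3 and far apart for MT-CO2. The complex V mRNAs, of the membrane part of ATP synthase, were among the largest falls. MT-ATP8 had 30.7 and 36.3 RPKM in AI mock cells, against 4506 and 13655 in AI untreated cells, and 104 and 123 in AD mock cells, against 5437 and 9765 in AD untreated cells. MT-ATP6 had 15.1 and 17.5 RPKM in AI mock cells, against 1148 and 2305 in AI untreated cells, and 42.03 and 48.9 in AD mock cells, against 1358 and 2121 in AD untreated cells. MT-ATP8 was 271-fold lower in AI and 66.8-fold lower in AD mock cells, and MT-ATP6 106-fold and 38.3-fold lower.

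**Figure D2:**
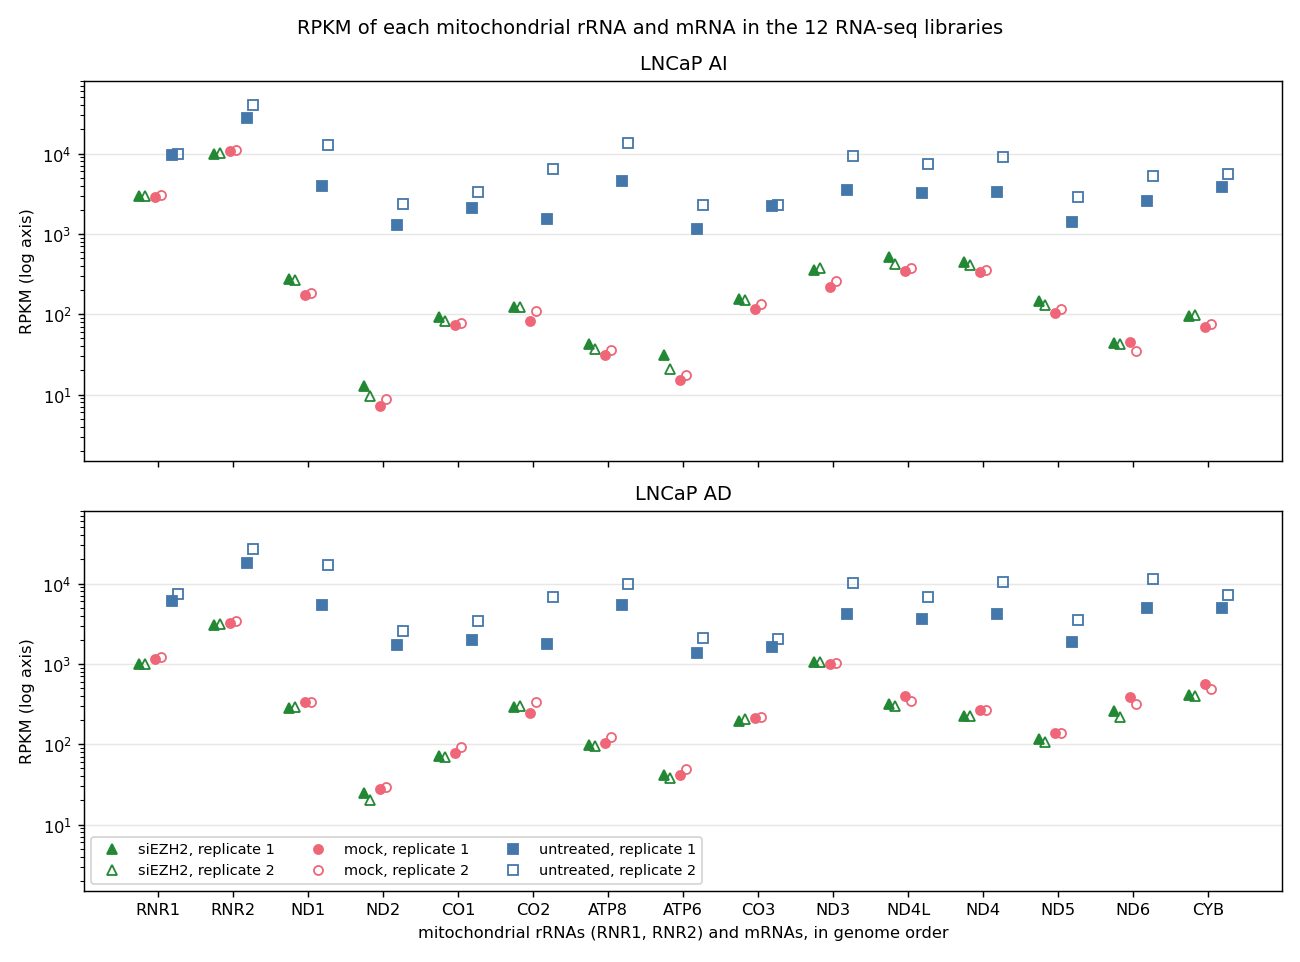
Points give the RPKM (log axis) of the 2 rRNAs and 13 mRNAs in genome order for each RNA-seq library, AI above and AD below; triangles are siEZH2, circles mock and squares untreated cells, filled for replicate 1 and open for replicate 2. Every mRNA lies at least 7-fold lower on average in mock than in untreated cells, the open untreated squares lie above the filled ones, and in AI cells the 2 rRNAs drop least.

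The 2 rRNAs, which are the scaffold of the small and the large mitochondrial ribosomal subunit, had smaller log2 changes than all 13 mRNAs in AI cells and, apart from MT-ND3, in AD cells. MT-RNR1 had 2909 and 3085 RPKM in AI mock cells, against 9617 and 9742 in AI untreated cells (log2 change -1.69), and 1152 and 1226 in AD mock cells, against 6154 and 7394 in AD untreated cells (-2.50). MT-RNR2 had 10773 and 11181 RPKM in AI mock cells, against 27338 and 40465 in AI untreated cells (-1.60), and 3209 and 3396 in AD mock cells, against 18109 and 27234 in AD untreated cells (-2.75). Mock libraries lay below untreated ones without overlap for both genes in both lines, and both were called lower. In AI cells MT-RNR2 lost its call under quantile normalization (adjusted p = 1), which gives the top-ranked gene of every library the same value, in a fit of the compared groups alone (0.0622) and in that fit with a replicate block (0.243), where MT-RNR1 lost its call too (0.0797). The summed rRNA level per unit of summed mRNA level was 8.44 and 8.03 in AI mock cells, against 1.07 and 0.608 in AI untreated cells. In AD cells the ratio was 1.15 and 1.23 with mock siRNA, against 0.563 and 0.370 in untreated cells.

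All 22 tRNAs passed the filter on low values, most through the untreated libraries alone, so counts over them describe those libraries. Counting reads from their lengths, the tRNAs together held 22 to 65 reads in each transfected library and 1621 to 8540 in each untreated one, and 6 to 9 of the 22 were above 0 in a transfected library against 21 or 22 in an untreated one. In AI, 14 of the 22 were at 0 in both mock libraries and none was at 0 in both untreated ones, and in AD 11 and none. Values are given here for the 3 tRNA genes that flank the rRNAs, MT-TF, MT-TV and MT-TL1. MT-TL1, a leucine tRNA, had 44.7 and 54.3 RPKM in AI mock cells, against 411 and 679 in AI untreated cells, and 33.4 and 28.9 in AD mock cells, against 431 and 972 in AD untreated cells. MT-TV, the valine tRNA, had 22.7 and 4.54 RPKM in AI mock cells, against 370 and 700 in AI untreated cells, and 6.06 and 2.41 in AD mock cells, against 268 and 477 in AD untreated cells. MT-TF, the phenylalanine tRNA, had 3.14 and 2.20 RPKM in AI mock cells, against 112 and 149.5 in AI untreated cells, and 0 and 2.35 in AD mock cells, against 109.98 and 183 in AD untreated cells. Across all libraries of both assays these 3 tRNAs held 54.96 to 93.2% of the summed tRNA RPKM. Mature tRNAs are short, structured and without poly(A) tails, and reads over a tRNA gene can also come from precursors that span it.

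The AI and AD lines were next compared in untreated cells, where 34.6% of all tested genes were called (22.2% higher and 12.4% lower in AI, or 3158 and 1764 genes, which became 2079 and 2445 under median-ratio scaling). None of the 13 mRNAs was called by limma, and 2 of 13 had an unadjusted p under 0.05. These were MT-ND6, with a log2 change of -1.04 (SE 0.389, adjusted p = 0.0650), and MT-CO3, with 0.31 (adjusted p = 0.0990), the only mRNA whose untreated groups did not overlap, against 37.6% of all tested genes that lay higher and 22.3% that lay lower without overlap. The spread between untreated replicates limits this comparison: replicate 2 exceeded replicate 1 for every mRNA, by 1.04 to 4.22 times in AI cells (median 2.07) and by 1.29 to 3.82 times in AD cells (median 1.88). MT-CO2 had the highest and MT-CO3 the lowest of these ratios in both lines, and replicate 2 was also the deeper library in both. Within replicate numbers, MT-ND6 in AI cells was at 0.514 and 0.460 times its AD level, MT-CYB at 0.758 and 0.767 and MT-ND1 at 0.739 and 0.738. In all, 8 of 13 mRNAs were lower in AI within both numbers and 1, MT-CO3 at 1.38 and 1.11 times, was higher in both. Of all tested genes 30.9% were lower and 49.4% higher within both numbers. Of the rRNAs, MT-RNR1 was higher in AI untreated cells (log2 change 0.52, SE 0.130, adjusted p = 0.0127), and MT-RNR2 had 0.58 (adjusted p = 0.0778). The MT-RNR1 call was lost under 5 alternatives: without a filter (adjusted p = 0.190), under quantile normalization (0.533) and median-ratio scaling (0.0786), and in a fit of the compared groups alone without (0.623) and with a replicate block (0.117). Among the tRNAs, MT-TP, the proline tRNA, had 35.0 and 31.1 RPKM in AI untreated cells, against 78.5 and 44.6 in AD untreated cells (-0.84, adjusted p = 0.0297). MT-TS1, a serine tRNA, had 61.9 and 22.7 RPKM in AI untreated cells, against 15.8 and 19.4 in AD untreated cells (1.08, adjusted p = 0.0426). Neither overlapped between the lines, and each lost its call under several alternatives.

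In mock-transfected cells the lines differed gene by gene, in a comparison where 55.7% of all tested genes were called (12.2% higher and 43.5% lower in AI), with a median log2 change of -0.41 over all genes. Of the 13 mRNAs, 7 were called lower in AI and none higher, and the groups did not overlap for 11 lower mRNAs and 1 higher one, against 58.4% lower and 22.7% higher of all tested genes. MT-ND6 and MT-CYB had the largest changes among the mRNAs. MT-ND6 averaged 40.1 ± 7.10 RPKM in AI mock cells against 352 ± 44.2 in AD mock cells (SD, n = 2 each), a log2 change of -3.13 (SE 0.389, adjusted p = 0.000113). MT-CYB averaged 72.5 ± 3.36 RPKM in AI mock cells against 527 ± 52.2 in AD mock cells (SD, n = 2 each), a log2 change of -2.85 (SE 0.205, adjusted p = 4.23e-06). In AI mock cells MT-ND6 was 8.80-fold lower and MT-CYB 7.27-fold lower than in AD mock cells. The other mRNAs called lower were MT-ND3 (-2.08, SE 0.452, adjusted p = 0.0033), MT-ND2 (-1.78, SE 0.285, adjusted p = 0.000537), MT-ATP8 (-1.75, SE 0.434, adjusted p = 0.00682), MT-ATP6 (-1.45, SE 0.324, adjusted p = 0.00379) and MT-CO3 (-0.78, SE 0.132, adjusted p = 0.000789). The MT-CO3 call was lost under median-ratio scaling, where its change was -0.31 (adjusted p = 0.0724); that scaling gave a median of -0.99 over the 13 mRNAs and -0.05 over all genes. Quantile normalization gave -1.24 and 0.02, and an equal sum over nuclear genes gave -1.61 and -0.53. Relative to all genes, the mRNA median thus lay lower in AI mock cells under each scaling. The split over all genes moved with the scaling, from 1731 higher and 6188 lower as deposited to 3518 and 4089 under median-ratio scaling.

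The 6 mRNAs without a call were of complexes I and IV. MT-CO2 (-1.58, adjusted p = 0.0708) and MT-ND1 (-0.90, adjusted p = 0.195) lay lower in both AI mock libraries. MT-ND5 (-0.32, adjusted p = 0.444), MT-CO1 (-0.18, adjusted p = 0.583) and MT-ND4L (-0.04, adjusted p = 0.942) had values within 1.5-fold of the AD ones, and MT-ND4 (0.36, adjusted p = 0.530) lay higher in both AI mock libraries. The standard errors of these genes are pooled over the 6 groups and so carry the wide spread of the untreated replicates. Both rRNAs went the other way from the called mRNAs. MT-RNR1 was 2.52-fold higher in AI mock cells (log2 change 1.33, SE 0.130, adjusted p = 2.49e-05) and MT-RNR2 3.32-fold higher (1.73, SE 0.230, adjusted p = 0.00017), with no overlap between libraries and a call under every alternative run. limma called none of the 22 tRNAs, and none had an unadjusted p under 0.05. The tRNAs held only 40 to 65 reads in each mock library. Of the 22, 14 were at 0 in both AI mock libraries and 11 in both AD mock libraries. With so few reads this test cannot decide whether the tRNAs differed.

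**Figure D3:**
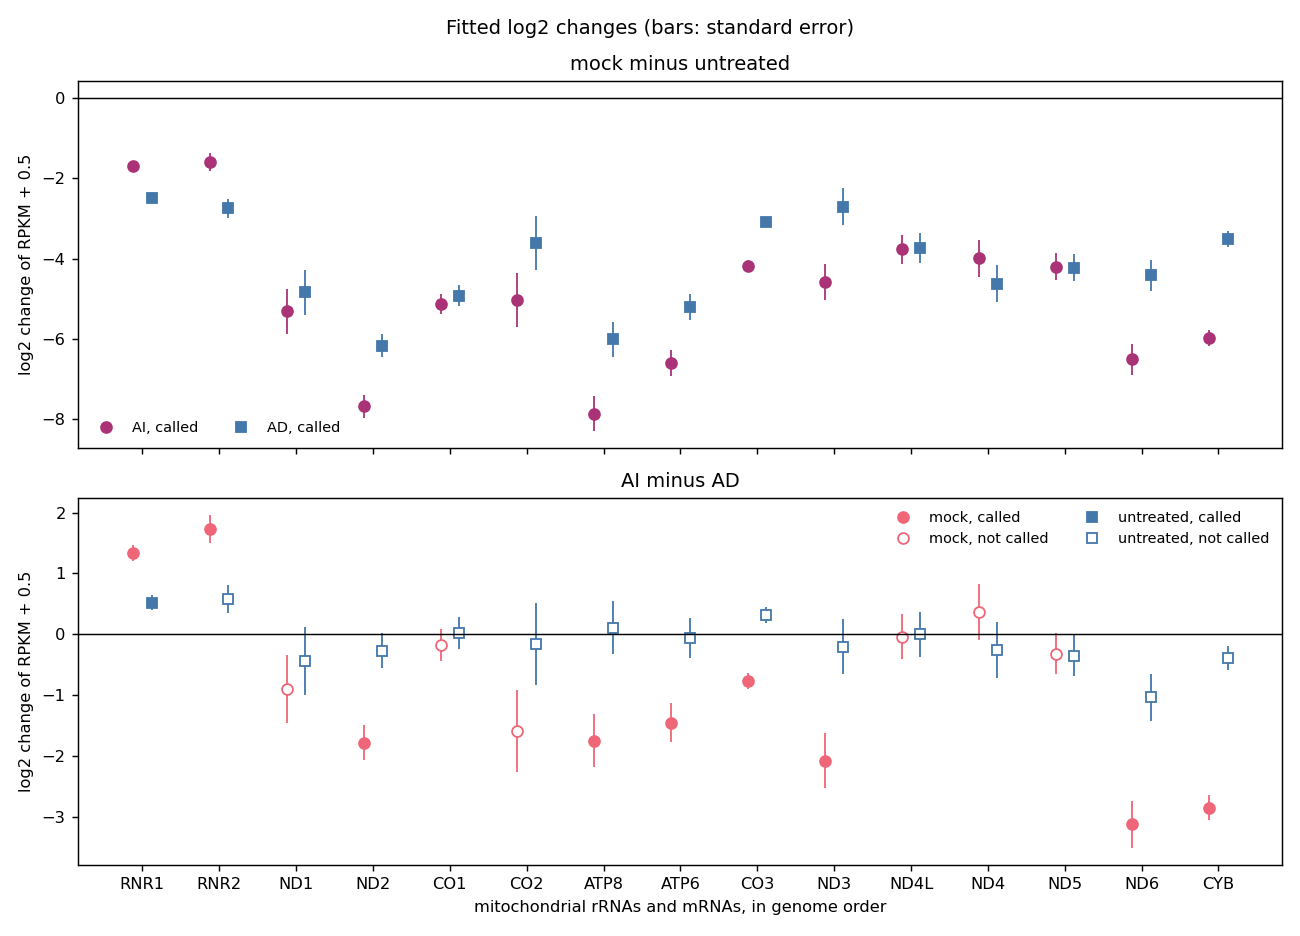
Points give the fitted log2 change of RPKM + 0.5 for each rRNA and mRNA in genome order, with bars of 1 standard error. Above, mock minus untreated in AI (circles) and AD (squares), all called. Below, AI minus AD in mock (circles) and untreated cells (squares), filled where called: in mock cells the rRNAs lie at 1.33 and 1.73 and MT-ND6 and MT-CYB at -3.13 and -2.85, while among the untreated mRNAs none is called.

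Whether the AI to AD difference itself differed between mock and untreated cells was tested as a difference of differences, which over all genes called 50.2% (8.99% higher and 41.2% lower, or 1279 and 5860 genes, which became 2892 and 3170 under median-ratio scaling) with a median of -0.54. It was called for 7 mRNAs, all lower: MT-CYB (log2 difference -2.46, SE 0.289, adjusted p = 0.000132), MT-ND6 (-2.09, SE 0.550, adjusted p = 0.0108), MT-ND3 (-1.88), MT-ATP8 (-1.85), MT-ND2 (-1.51), MT-ATP6 (-1.39) and MT-CO3 (-1.09, adjusted p = 0.0011). The 6 others ran from -1.42 (MT-CO2) to 0.63 (MT-ND4). Both rRNAs were called higher, MT-RNR1 at 0.81 (adjusted p = 0.00496) and MT-RNR2 at 1.15 (adjusted p = 0.0152). MT-RNR1 lost this call under 2 of 17 alternatives (adjusted p up to 0.207) and MT-RNR2 under 5 of 17 (up to 0.252), among them leaving out AD mock replicate 1 (0.0525) or AI mock replicate 2 (0.0507). MT-CYB alone among the 7 mRNAs kept its call under median-ratio scaling, and without AD untreated replicate 1, or without any 1 of the 4 mock libraries, the count was 4. The mock groups here are those of the comparison before, so both share their libraries.

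The mRNA make-up of each group, as shares of the summed mRNA RPKM, differed in the same genes. MT-ND3 held 13.5 and 14.4% of the mRNA level in AI mock cells, against 26.1 and 27.0% in AD mock cells, its highest share outside AD siEZH2 cells. MT-ND4L and MT-ND4 held 21.6 and 21.0% and 20.5 and 20.0% in AI mock cells, against 10.6 and 9.2% and 7.0 and 7.2% in AD mock cells. MT-CYB held 4.3 and 4.2% in AI mock cells, against 14.9 and 13.1% in AD mock cells, and MT-ND6 2.8 and 2.0% in AI mock cells, against 10.1 and 8.6% in AD mock cells. The mRNAs of complex I together took 76.1 and 74.8% in AI mock cells and 67.2 and 65.3% in AD mock cells, against 55.9 and 59.4% in AI untreated and 60.2 and 66.4% in AD untreated cells. Weighted by gene length, the complex I share was 74.2 and 73.2% in AI mock cells, against 56.8 and 64.8% in AI untreated cells. In AD cells that weighting turned the order of the means round, with 58.7 and 57.9% in mock cells, against 61.5 and 68.9% in untreated cells. MT-ATP8, at 13.02 and 16.5% in AI untreated and 12.6 and 10.4% in AD untreated cells, held 1.7 to 3.3% in every transfected library. Ordered by mean level, AI mock cells began with MT-ND4L (361 RPKM) and MT-ND4 (344 RPKM), which overlapped, and MT-ND3 (237 RPKM), and AD mock cells with MT-ND3 (1002 RPKM) and MT-CYB (527 RPKM), neither overlapping the next gene. MT-ND2 came last in both, at 7.99 RPKM in AI and 28.6 RPKM in AD mock cells. In untreated cells each gene overlapped the next in the order: AI ran from MT-ATP8 (9081 RPKM) down to MT-ATP6 (1726 RPKM), and AD from MT-ND1 (11329 RPKM) down to MT-ATP6 (1740 RPKM).

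**Figure D4:**
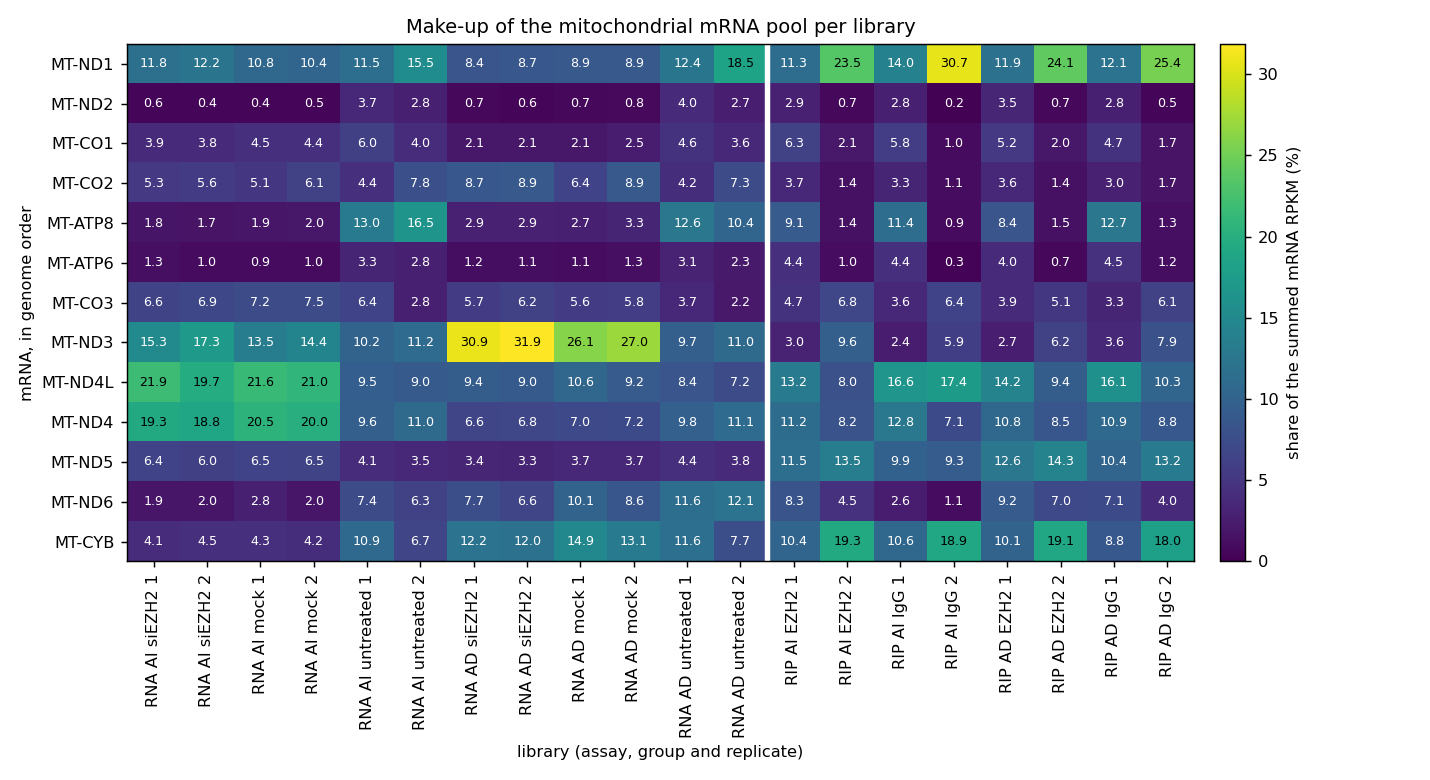
Each cell gives the share (%, colour and number) of a library's summed mitochondrial mRNA RPKM held by 1 mRNA (rows, genome order) in 1 library (columns; RNA-seq left of the white line, RIP right). MT-ND3 reaches 31.9% in AD siEZH2 cells, MT-ND4L and MT-ND4 are near 20% in transfected AI cells, and in RIP the MT-ND1 and MT-CYB shares follow the replicate number.

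Cells with siEZH2 were compared with mock-transfected cells within each line. By limma, EZH2 itself was called lower in neither line (log2 change -0.59, adjusted p = 0.126, in AI and -0.07 in AD cells). No mitochondrial mRNA was called by limma in either line, and none of the 13 had an unadjusted p under 0.05 in either. The standard errors are pooled over the 6 groups and so carry the wide spread of the untreated replicates. A fit of the compared groups alone, with 2 libraries each, called no gene in either line. The lack of a call therefore does not show that levels were equal. Over all genes the reported fit called 1.46% in AI (0.0703% higher and 1.39% lower, or 10 and 198 genes, which became 6 and 22 under median-ratio scaling) and 0.0141% in AD cells. In AI cells 12 of 13 mRNAs were higher in both siEZH2 libraries than in both mock libraries, all but MT-ND6, with a median log2 change of 0.37 (range 0.11 to 0.62) and a lowest adjusted p of 0.289, for MT-CO3. Of all tested genes 21.5% lay higher and 32.4% lower in AI siEZH2 cells without overlap. In AD cells 11 of 13 were lower in both siEZH2 libraries and 1, MT-ND3, was higher, with a median of -0.25 and a range from -0.55 (MT-ND6) to 0.07. Of all tested genes 23.0% lay lower and 18.6% higher in AD siEZH2 cells without overlap. The difference between the lines was called for no mRNA and for no gene at all (976 of 14227 genes and 1 of 13 mRNAs had an unadjusted p under 0.05); over the mRNAs it had a median of 0.63 and ran from 0.32 to 0.81, and MT-CYB, at 0.78, had an adjusted p of 0.650.

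By complex, the mRNA levels in siEZH2 cells differed from those of mock cells by log2 changes of 0.11 to 0.62 in AI and -0.55 to 0.07 in AD cells. In complex I, MT-ND1 had 274 and 265 RPKM in AI siEZH2 cells, against 175 and 184 in AI mock cells, and 285 and 288 in AD siEZH2 cells, against 338 and 334 in AD mock cells. MT-ND2 had 12.8 and 9.66 RPKM in AI siEZH2 cells, against 7.18 and 8.79 in AI mock cells, and 25.1 and 20.3 in AD siEZH2 cells, against 28.0 and 29.2 in AD mock cells. MT-ND3 had 355 and 374 RPKM in AI siEZH2 cells, against 219 and 256 in AI mock cells, and 1044 and 1058 in AD siEZH2 cells, against 989 and 1015 in AD mock cells. The groups did not overlap for any of these 3 genes, and only MT-ND3 lay higher with siEZH2 in both lines. MT-ND4L had 509 and 426 RPKM in AI siEZH2 cells, against 350.0 and 373 in AI mock cells, and 319 and 298 in AD siEZH2 cells, against 400.3 and 344 in AD mock cells. MT-ND4 had 449 and 407 RPKM in AI siEZH2 cells, against 333 and 356 in AI mock cells, and 225 and 226 in AD siEZH2 cells, against 265 and 269.5 in AD mock cells. MT-ND5 had 148 and 131 RPKM in AI siEZH2 cells, against 105 and 115 in AI mock cells, and 116 and 108 in AD siEZH2 cells, against 138 and 137 in AD mock cells. These 3 lay higher in AI and lower in AD siEZH2 cells, without overlap. MT-ND6 had 43.5 and 42.6 RPKM in AI siEZH2 cells, against 45.1 and 35.0 in AI mock cells, and 259.98 and 219.6 in AD siEZH2 cells, against 384 and 321 in AD mock cells; the groups overlapped in AI and not in AD. In complex III, MT-CYB had 95.2 and 96.5 RPKM in AI siEZH2 cells, against 70.2 and 74.9 in AI mock cells, and 411 and 398 in AD siEZH2 cells, against 564 and 490.2 in AD mock cells.

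In complex IV, MT-CO1 had 91.2 and 83.2 RPKM in AI siEZH2 cells, against 72.5 and 77.7 in AI mock cells, and 70.7 and 69.5 in AD siEZH2 cells, against 78.3 and 92.4 in AD mock cells. MT-CO2 had 123 and 122 RPKM in AI siEZH2 cells, against 82.4 and 109 in AI mock cells, and 293 and 296 in AD siEZH2 cells, against 244 and 333 in AD mock cells. MT-CO3 had 153 and 149.9 RPKM in AI siEZH2 cells, against 117 and 132 in AI mock cells, and 192 and 206 in AD siEZH2 cells, against 211 and 217 in AD mock cells. Only MT-CO2 in AD cells overlapped between the groups. In complex V, MT-ATP8 had 42.1 and 37.1 RPKM in AI siEZH2 cells, against 30.7 and 36.3 in AI mock cells, and 98.2 and 96.3 in AD siEZH2 cells, against 104 and 123 in AD mock cells. MT-ATP6 had 30.9 and 20.6 RPKM in AI siEZH2 cells, against 15.1 and 17.5 in AI mock cells, and 41.6 and 37.9 in AD siEZH2 cells, against 42.03 and 48.9 in AD mock cells. The rRNA MT-RNR1 had 3001 and 2978 RPKM in AI siEZH2 cells, against 2909 and 3085 in AI mock cells, and 992 and 1002 in AD siEZH2 cells, against 1152 and 1226 in AD mock cells. MT-RNR2 had 10023 and 10269.6 RPKM in AI siEZH2 cells, against 10773 and 11181 in AI mock cells, and 3073 and 3107 in AD siEZH2 cells, against 3209 and 3396 in AD mock cells. Neither rRNA was called in either line, and neither had an unadjusted p under 0.05. One tRNA was called in AD cells, MT-TP, which was listed at 1.55 and 2.46 RPKM with siEZH2, or 1 and 2 reads, and at 0 in both AD mock libraries (adjusted p = 0.0406); at this depth that difference rests on 3 reads and was lost under 7 of the processing alternatives and on leaving out any 1 of the 4 libraries.

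Lists of nuclear genes whose products make or use mitochondrial RNA were set beside the mitochondrial genes. In mock cells, AI against AD, 0 of 24 tested genes of mitochondrial DNA transcription and maintenance were called higher and 13 lower, beside 12.2% higher and 43.5% lower over all tested genes. The members with the largest changes were TWNK, the mitochondrial DNA helicase, at 0.88 ± 0.198 RPKM in AI against 10.3 ± 0.714 in AD mock cells (log2 change -2.98), MTRES1 (-2.53), PPRC1, a coactivator of the PGC-1 family (-2.40), and TFB2M, the transcription factor that opens the promoter (-1.23). Under quantile normalization 3 of the list were higher and 7 lower, under median-ratio scaling 3 and 6, and at an equal nuclear sum 0 and 17. Over all genes these scalings gave 3440 and 3522, 3518 and 4089, and 1264 and 6872. Of 22 genes of RNA processing and stability, 1 was higher and 11 lower, a direction that flips under median-ratio scaling, where 7 were higher and 5 lower. LRPPRC, which stabilizes mitochondrial mRNAs, was the 1 higher, at 38.0 ± 2.01 RPKM in AI against 12.3 ± 1.05 in AD mock cells (SD, n = 2 each; 1.59, adjusted p = 4.92e-05), while PTCD1 (-1.84), FASTKD1 (-1.45) and TRMT10C, a subunit of mitochondrial RNase P (-1.26), were lower. Of 20 genes of tRNA and rRNA modification 2 were higher and 12 lower (4 and 7, 5 and 8, and 1 and 12 under the 3 scalings in the order above), led by the methyltransferases NSUN2 (-2.90), MRM1 (-1.86) and MRM2 (-1.74) and the pseudouridine synthase PUS1 (-1.69). Nuclear subunits of oxidative phosphorylation went the other way, with 20 of 41 higher and 1 lower and a median of 0.60, against -0.41 over all genes (19 and 3, 34 and 0, and 16 and 2 under the 3 scalings). COX7C (1.48), COX7B (1.44), NDUFA4 (1.33) and COX8A (1.31), mostly small subunits of cytochrome c oxidase, changed most.

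The lists were then taken between mock and untreated AI cells, which share the AI mock libraries with the comparison above and where 21.5% of all tested genes were called higher and 35.5% lower. Transcription and maintenance had 3 higher and 12 lower of 24, led by TWNK (-3.44), PPRC1 (-2.92) and MTRES1 (-2.38), processing and stability 3 and 11 of 22, led by FASTKD1 (-2.09), and modification 4 and 11 of 20, led by NSUN2 (-2.63). All 3 kept more lower than higher calls under the 3 scalings. The nuclear oxidative phosphorylation list had 27 higher and 0 lower of 41, with a median of 1.08 against -0.20 over all genes (25 and 2, 33 and 0, and 22 and 3 under the 3 scalings). Within it COX8A averaged 411 ± 5.23 RPKM in AI mock against 64.1 ± 28.2 in AI untreated cells (2.74), and COX5B 1064 ± 25.5 against 197 ± 74.9 (2.49). Both encode subunits of complex IV, whose mitochondrially encoded mRNAs were lower in the same comparison. Between mock and untreated AD cells, where 37.6% of all tested genes were called higher and 7.73% lower, 14 of the 41 nuclear subunits were higher and 1 lower, led by NDUFB5 (1.37) and UQCRC2 (1.32), with a median of 0.42 against 0.35 over all genes. Transcription and maintenance had 10 higher and 3 lower there, but 2 and 4 under quantile normalization and 1 and 3 under median-ratio scaling, with POLRMT, the polymerase, at 3.31 ± 0.205 RPKM in AD mock against 8.98 ± 2.35 in AD untreated cells (SD, n = 2 each; -1.29, adjusted p = 0.000239). Processing and stability had 7 higher and 0 lower there (2 and 0 under quantile normalization). Modification had 5 higher and 1 lower, but 1 and 4 under quantile normalization and 1 and 3 under median-ratio scaling. Over all genes these scalings gave 2634 higher and 2483 lower, and 2658 and 2347, between mock and untreated AD cells.

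In untreated cells, AI against AD, 9 of 22 genes of RNA processing and stability were higher and 0 lower (7 and 0, 7 and 0, and 8 and 0 under the 3 scalings), beside 22.2% higher and 12.4% lower over all tested genes. They included PNPT1, a subunit of the RNA degradosome (1.24), LACTB2 (1.24) and TRMT10C (1.16). Transcription and maintenance had 8 higher and 1 lower, with PRIMPOL higher (1.41) and the topoisomerase TOP1MT lower (-1.003). Modification had 7 higher and 1 lower, which turned to 4 and 5 under quantile normalization and 3 and 5 under median-ratio scaling. The oxidative phosphorylation list had 6 higher and 1 lower, which became 3 and 3 and 3 and 4 under those scalings. Over all genes those scalings gave 2336 higher and 2291 lower, and 2079 and 2445. With siEZH2, no list member was called in AD cells and 1 was called in AI cells: TFAM, which packages mitochondrial DNA and starts its transcription, at 2.87 ± 0.106 RPKM in AI siEZH2 against 5.17 ± 0.226 in AI mock cells (SD, n = 2 each; log2 change -0.75, SE 0.115, adjusted p = 0.0338). That call was lost under 9 of 14 alternatives: quantile normalization (adjusted p = 0.119), median-ratio scaling (0.0616), an equal nuclear sum (0.0559), a fit of the compared groups alone without (0.0990) and with a replicate block (0.197), and on leaving out any 1 of the 4 AI siEZH2 and mock libraries (0.114 to 0.199).

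RIP asked which RNAs came down with EZH2 as against IgG. Mitochondrial RNA held a smaller share of the EZH2 libraries than of the IgG libraries: 5.85 and 3.14% of summed RPKM with EZH2 in AI cells, against 37.8 and 25.98% with IgG, and 4.84 and 2.40% with EZH2 in AD cells, against 31.7 and 9.26% with IgG. RPKM is relative to each library's reads, so a lower level with EZH2 is a lower share and not a count of molecules. The IgG libraries were shallow, with estimated mitochondrial mRNA reads of 4384 and 504 in AI and 2483 and 2288 in AD, against 12351 and 4545 with EZH2 in AI and 10237 and 3587 with EZH2 in AD. In the shallowest, AI IgG replicate 2, the lowest mRNA had 1 read and the median mRNA 11. No gene was called by limma in any RIP comparison (0% of 13667). At an unadjusted p under 0.05, EZH2 against IgG had 2837 genes higher and 93 lower in AI cells, with 7 of 13 mitochondrial mRNAs among the lower ones. In AD cells it had 1284 higher and 99 lower, with 5 of 13 mRNAs among the lower ones.

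All 13 mRNAs and both rRNAs were lower with EZH2 than with IgG within each replicate number in both lines, as were 10.8% of all tested genes in AI and 18.4% in AD cells. In AI cells the mRNA levels with EZH2 were 0.172 to 0.700 times those with IgG in replicate 1 and 0.0682 to 0.637 times in replicate 2, and in AD cells 0.116 to 0.226 and 0.249 to 0.718 times. Across both replicates, the groups did not overlap for 8 mRNAs in AI and for 4 in AD cells (MT-ND1, MT-ND3, MT-CO3 and MT-CYB), all lower with EZH2, against 4.08% of all tested genes lower without overlap in AI and 12.4% in AD cells. The median log2 change was -2.16 in AI cells (from -3.20 for MT-ND4L to -0.58 for MT-ND6), against 0.88 over all genes, and -1.92 in AD cells (from -2.29 for MT-ND3 to -1.31 for MT-ND6), against 0.43 over all genes. MT-ND6 had the smallest difference in both lines. A gene absent or nearly absent with IgG cannot lie lower with EZH2, and the IgG libraries were shallow. How far this set the all-gene shares and medians was not tested. In AD cells the luminal markers had a median of -0.76 and the nuclear oxidative phosphorylation subunits of -0.55. In AI cells these medians were -0.31 and 0.21. All other gene and marker lists had positive medians in both lines. The rRNAs behaved like the mRNAs. MT-RNR1 had 1169 and 1179.5 RPKM with EZH2 in AI cells, against 5875 and 10904 with IgG (log2 change -2.77, adjusted p = 0.109), and 976 and 949 with EZH2 in AD cells, against 4927 and 3021 with IgG (-2.00, adjusted p = 0.324). MT-RNR2 had 1499 and 719.8 RPKM with EZH2 in AI cells, against 10237 and 6523 with IgG (-2.97, adjusted p = 0.109), and 1006 and 479 with EZH2 in AD cells, against 7301 and 1484 with IgG (-2.25, adjusted p = 0.386).

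Among the complex I mRNAs, MT-ND1 had 194 and 233 RPKM with EZH2 in AI cells, against 1108 and 2043 with IgG, and 162 and 122 with EZH2 in AD cells, against 943 and 316 with IgG. MT-ND3 had 51.2 and 95.4 RPKM with EZH2 in AI cells, against 188 and 390.5 with IgG, and 36.2 and 31.2 with EZH2 in AD cells, against 279.9 and 98.2 with IgG. Both lay lower with EZH2 in every library. MT-ND2 had 49.9 and 6.46 RPKM with EZH2 in AI cells, against 219 and 11.8 with IgG, and 47.3 and 3.40 with EZH2 in AD cells, against 219 and 6.73 with IgG, so that replicates differed by more than the antibodies. MT-ND4L had 225 and 79.0 RPKM with EZH2 in AI cells, against 1312 and 1158 with IgG, and 194 and 47.8 with EZH2 in AD cells, against 1250.1 and 129 with IgG. MT-ND4 had 192 and 81.2 RPKM with EZH2 in AI cells, against 1013 and 472 with IgG, and 146 and 42.8 with EZH2 in AD cells, against 851 and 109 with IgG. MT-ND5 had 197 and 134 RPKM with EZH2 in AI cells, against 781 and 617 with IgG, and 172 and 72.2 with EZH2 in AD cells, against 812 and 165 with IgG. These 3 lay lower with EZH2 without overlap in AI cells and overlapped in AD cells. MT-ND6 had 141 and 44.7 RPKM with EZH2 in AI cells, against 202 and 70.2 with IgG, and 125 and 35.4 with EZH2 in AD cells, against 553 and 49.3 with IgG, overlapping in both.

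MT-CYB, of complex III, had 178 and 192 RPKM with EZH2 in AI cells, against 840.1 and 1259 with IgG, and 138 and 96.5 with EZH2 in AD cells, against 681 and 225 with IgG. In complex IV, MT-CO1 had 107 and 21.0 RPKM with EZH2 in AI cells, against 461 and 63.7 with IgG, and 71.2 and 10.2 with EZH2 in AD cells, against 365 and 21.3 with IgG. MT-CO2 had 62.4 and 14.3 RPKM with EZH2 in AI cells, against 257 and 71.8 with IgG, and 49.3 and 7.05 with EZH2 in AD cells, against 232 and 21.3 with IgG. MT-CYB did not overlap between the antibodies in either line, whereas MT-CO1 overlapped in both. MT-CO3 had 79.8 and 67.9 RPKM with EZH2 in AI cells, against 281 and 423 with IgG, and 52.6 and 26.1 with EZH2 in AD cells, against 261 and 76.4 with IgG. In complex V, MT-ATP8 had 156 and 13.6 RPKM with EZH2 in AI cells, against 898 and 59.3 with IgG, and 114 and 7.54 with EZH2 in AD cells, against 988 and 15.6 with IgG. MT-ATP6 had 75.4 and 9.88 RPKM with EZH2 in AI cells, against 347 and 18.0 with IgG, and 54.2 and 3.75 with EZH2 in AD cells, against 352 and 15.1 with IgG. For both complex V mRNAs replicate 1 lay far above replicate 2 with either antibody. MT-TF, the most abundant tRNA of these libraries, had 98.7 and 153 RPKM with EZH2 in AI cells, against 436 and 1038 with IgG, and 105 and 81.9 with EZH2 in AD cells, against 455 and 258 with IgG. Of the 20 listed tRNAs 17 passed the filter, none was called, and 3 to 15 were above 0 per library.

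**Figure D5:**
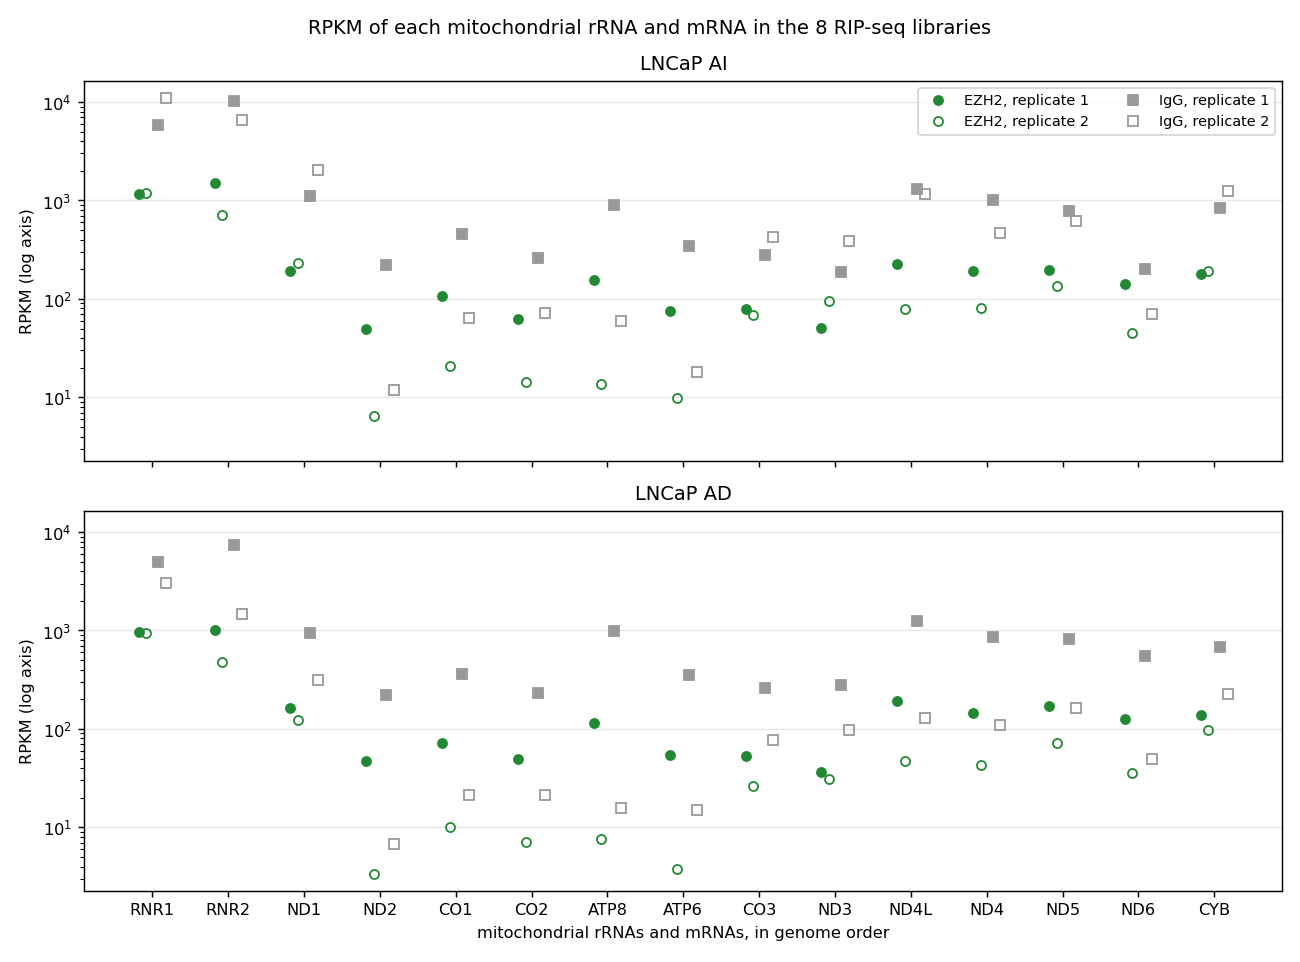
Points give the RPKM (log axis) of each rRNA and mRNA in the 8 RIP libraries, AI above and AD below; circles are EZH2 and squares IgG, filled for replicate 1 and open for replicate 2. Within a replicate number every EZH2 point lies under its IgG point, and for MT-ND2, MT-CO1, MT-CO2, MT-ATP8 and MT-ATP6 the open points lie far under the filled ones with both antibodies.

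The make-up of the mRNAs in RIP followed the replicate number. MT-ND1 held 11.3 to 14.02% of the summed mRNA RPKM in the 4 libraries of replicate 1 and 23.5 to 30.7% in those of replicate 2, and MT-CYB 8.75 to 10.6% and 18.0 to 19.3%. The complex V mRNAs together held 12.4 to 17.2% in replicate 1 and 1.16 to 2.46% in replicate 2, whichever the antibody or line. The labels name 2 sequencing instruments for RIP, with paired and single reads, without saying which library was run on which, so their part in this was not tested. With EZH2, AI cells had higher levels than AD cells for all 13 mRNAs within both replicate numbers, with a median log2 change of 0.65, and for 4 of them (MT-ND1, MT-ND3, MT-CO3 and MT-CYB) without overlap. Of all tested genes 37.4% were higher in AI within both numbers and 13.8% without overlap. None of the 13 was called, and none had an unadjusted p under 0.05. With IgG too, the mRNAs held a higher share of summed RPKM in AI cells (12.1 and 6.74%) than in AD cells (11.98 and 1.81%). The change from IgG to EZH2, AI less AD, had a median log2 difference of -0.29 over the mRNAs, against 0.34 over all genes. It was called for no mRNA, so the higher levels with EZH2 in AI cells cannot be ascribed to the antibody.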

How the data were processed

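RNA-seq and RIP were read as the RPKM values that the authors deposited with 2 decimals; the 14 ChIP samples and inputs were not used here. Per the submitters' processing notes, TopHat2, edgeR and cutadapt were used on build GRCh38, without versions or roles; the counting tool is not given in the sources used here. Per the labels' protocols, RNA was selected with oligo(dT) and RIP RNA cut from a gel, steps that favour polyadenylated RNA and longer RNA over tRNAs. Both antibodies carry the same catalogue number in the labels. Every column of both tables had a sample. RPKM is no count, so no count test was run. limma 3.58.1 (R 4.3.3, limma-trend) was fitted to log2(RPKM + 0.5) with 1 coefficient per group, all 12 RNA-seq libraries in one fit and the 8 RIP libraries in another. Genes had 0.5 RPKM or more in at least 2 libraries (14227 RNA-seq and 13667 RIP genes), and a call needed a Benjamini-Hochberg adjusted p under 0.05 over all of them. Since 0.5 was added, log2 changes understate differences at low RPKM. The fit was tested on simulated data, for RIP with added rises only, so that test does not cover falls in RIP. Tables were prepared with Python 3.11.15 (pandas 2.3.3).

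Depth was estimated from the smallest steps between tRNA values and the tRNA lengths in RefSeq (GRCh38.p14), allowing 0.15 reads for a whole number. As a check, 105 of 105 mRNA values under 500 reads came out whole at that depth, where 30% would for evenly spread remainders. Read numbers cover counting error only. Groups and replicate numbers came from the sample titles. The text names every mitochondrial mRNA and rRNA, tRNAs that passed the filter (the rest by count), and from each nuclear list up to 4 called members with the largest change. The members, the gene lists and the tests were chosen with earlier results of these data known. Alternatives were pseudocounts of 0.1 and 2, no filter and a filter of 5 RPKM, quantile normalization, median-ratio scaling, an equal sum over nuclear genes, fits of the compared groups alone, a replicate term, and leaving out each library. No mitochondrial sequence was in the reference tables used here, and none is printed.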

Additional observations from a re-analysis of the deposited data

Results flagged for a closer look

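The difference between AI and AD cells was itself different in mock-transfected and in untreated cells for 11 of the 37 mitochondrial genes, by the limma test of the difference of differences. On the log2 scale, as AI minus AD in mock cells less AI minus AD in untreated cells, it was -2.46 for MT-CYB, -2.09 for MT-ND6, -1.88 for MT-ND3, -1.85 for MT-ATP8, -1.51 for MT-ND2, -1.39 for MT-ATP6 and -1.09 for MT-CO3. It was 0.81 for MT-RNR1 and 1.15 for MT-RNR2. It was -2.66 for MT-TT, the threonine tRNA, and 2.03 for MT-TI, the isoleucine tRNA, which had 0 to 2 and 2 to 7 reads in each mock library. Over all tested genes 50.2% passed this test. MT-TT and MT-TI each lost the call under 11 of 17 alternatives (adjusted p up to 0.181 and 0.209), MT-RNR2 under 5 and MT-RNR1 under 2. Of the 7 mRNAs, all but MT-CYB lost it under median-ratio scaling. The untreated libraries were the deeper ones, and the part of depth in these values was not tested.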

How the results depend on the processing

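All 13 mRNAs stayed lower in mock than in untreated cells under every alternative run, in both lines. In mock cells, AI against AD, the count of mRNAs called lower was 6 to 10 under the alternatives that kept every library (7 in the reported fit). Over all genes 3522 were lower under quantile normalization, 4089 under median-ratio scaling and 6872 at an equal nuclear sum. Fitting the compared groups alone called MT-ND4 higher (1 mRNA, also 1 with a replicate term), beside 2128 genes of all (2118 with that term). In untreated cells, where no mRNA was called, quantile normalization called 2 of 13 higher, beside 2336 higher and 2291 lower of all 14227 tested genes. It turned MT-ND4L to 0.45 (adjusted p = 0.0330, its reported value lying near 0), and the cause was not tested. Median-ratio scaling called 1 lower, and leaving out 1 library gave 0 to 1 higher and 0 to 2 lower. For the difference of differences, 7 mRNAs lower became 4 without a filter, 1 under median-ratio scaling, 4 when fitting those groups alone, and 4 to 8 on leaving out 1 library. Leaving out a library called 0 mRNAs in every siEZH2 and RIP comparison. Weighted by length instead of per length, complex I held 73.7% of the mRNA level in AI mock, 74.8% in AI siEZH2, 60.8% in AI untreated, 58.3% in AD mock, 58.8% in AD siEZH2 and 65.2% in AD untreated cells, so in AD cells mock lay below untreated, the reverse of the order per length. Of all log2 changes recomputed, 3958 kept their direction and side of the threshold, 196 lost and 63 gained a call. Another 136 moved without gaining or losing a call, among them changes that turned direction. MT-ATP6 in untreated cells, AI against AD, ran from -0.56 to 0.44 over the alternatives. In 1 more, MT-ND4L, the direction turned and a call was gained.

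Same-numbered libraries deviated together between the untreated lines (correlation over genes 0.70) and between the EZH2 RIP lines (0.71), and by -0.00442 to 0.33 in the other pairs of groups. The labels do not say what a replicate number marks, and 2 pairs per comparison cannot decide whether the samples were paired. The reported fits did not treat them as paired. With the replicate number as a block, EZH2 against IgG called 9 mRNAs lower in AI and 1 in AD cells (over all genes 1291 higher and 47 lower in AI, 472 and 11 in AD). In a fit of the compared groups alone with the block, chosen after seeing the data, it called 7 in AI and 7 in AD cells (1297 and 72, and 1369 and 75, over all genes). In that fit EZH2 in AI against AD cells called 1 higher (238 and 95 over all genes). Untreated AI against AD called 1 lower there (3241 higher and 1795 lower over all genes). Depth limits the tRNAs of the IgG RIP libraries (9 to 81 reads) and of the transfected libraries (22 to 65 reads), and the mRNAs of AI IgG replicate 2 (504 reads).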
